A study of Mus musculus with 4 samples.

Results

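The transcripts described here encode 10 nuclear receptor coactivators and chromatin regulators, measured in mouse RNA libraries labelled as liver: Crebbp, Ep300, Ncoa1, Ncoa2, Ncoa3, Ncoa6, Carm1, Ppargc1a, Sirt1 and Tgs1. They were found by gene symbol, and all 10 were among the 15500 genes of the expression table. Crebbp, Ncoa6, Carm1, Ppargc1a, Sirt1 and Tgs1 belong to the circadian genes that the study displayed. That display shows their values in the CLA and Vehicle libraries used here, and although the basis of their choice is not stated, they are treated here as selected on the measured difference between these libraries. Ep300, Ncoa1, Ncoa2 and Ncoa3 were added as close relatives. The difference between CLA and Vehicle is therefore given as a description, and nothing is read from how many of the members showed it.

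The animals were male mice of the Kunming strain, bought at 5 weeks of age, kept in 12 h of light per day and acclimated for 1 week. The Vehicle group ate chow with 1.5% (w/w) linoleic acid, with vehicle injections where these applied, and the CLA group ate chow with 1.5% (w/w) conjugated linoleic acid, an equal mixture of the c9,t11 and t10,c12 isomers. The GW6471 group ate the linoleic acid diet and was injected daily into the peritoneum with 20 mg/kg of GW6471, an antagonist of the nuclear receptor PPARα, and the CLA+GW6471 group was given the CLA diet together with the same injections. Treatment lasted 28 days with 6 mice per group, and livers were taken at zeitgeber time 8 h, that is, in the light phase. The study's methods give the sex, age, lighting and sampling time for the Vehicle and CLA mice, and the conditions with GW6471 rest on the labels, so these details are not stated for them. RNA sequencing gave 1 library per condition, 4 in all, and the sources used here do not say whether a library came from 1 mouse or a pool. With 1 library per condition there was no replicate error, so no test between conditions was possible and no p-value is given.

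Coactivators are proteins that ligand-bound nuclear receptors recruit to DNA to open chromatin and start transcription. The p160 proteins bind the receptor first and bring in the acetyltransferases CBP and p300 and the arginine methyltransferase CARM1, which mark histones, and larger assemblies built around NCOA6 add histone methylation. In liver, PGC-1α and the deacetylase SIRT1 tie this machinery to fasting, to fat oxidation through PPARα and to the circadian clock, since SIRT1 deacetylates both PGC-1α and clock proteins and PGC-1α coactivates the ROR receptors that drive Arntl.

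The deposited values were taken as FPKM, fragment counts scaled by transcript length and by library depth, so levels can be compared between genes. Differences are log2 ratios of FPKM with 0.1 added. Counting intervals (95%, exact Clopper-Pearson) rested on read depths estimated from the steps between low values, 18727101 to 19246135 reads per library, and cover counting error only, not the difference between mice. The intervals were calculated from FPKM without the added 0.1, so for the least abundant members the ratio lies off their centre. The members' estimated reads ran from 154 for Ppargc1a in CLA to 4419 for Ep300 in GW6471. A member was counted as higher or lower from a 1.2-fold ratio, and the share of all 10355 genes with a mean of at least 1 FPKM that passed the same ratio is given beside each count. Where a library holds several cell types, fewer cells of a type and less RNA per cell cannot be told apart.

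The label of the tissue was checked against marker genes. Of 16 hepatocyte markers, 11 were found among the listed genes, and Apoc3, Cyp3a11, G6pc, Pck1 and Serpina1a were not. Of the 11 found, 7 had a mean below 1 FPKM, among them the defining liver genes Ttr, Fga, Cyp2e1 and Cps1. In contrast Alb, at 620.17 to 1321.55 FPKM, Trf, at 219.56 to 351.19, Fgb, at 35.68 to 138.03, and Hnf4a, at 47.23 to 54.53, were well above the filter. Thus 4 of the 16 markers went with the label and the others did not, and liver is used here only as the labelled tissue. The summed hepatocyte markers, to which Alb contributed most, stood at 1003 (Vehicle), 1862 (CLA), 1520 (GW6471) and 931 FPKM (CLA+GW6471), the highest in the library in which most of the coactivators were lowest. The epithelial keratin genes Krt18 and Krt8, which hepatocytes also express, were at 1171 to 1359 and at 403 to 491 FPKM, while the other epithelial markers Krt7 and Epcam were at 18.43 to 23.47 and 7.09 to 8.95 FPKM and Krt19 and Cdh1 had means below 1 FPKM, and the most abundant gene was Sprr1a, a cornified-envelope gene of squamous epithelium, with a mean of 19942 FPKM. Of the macrophage markers, 5 of 6 were analysed, and their sum of 24.5, 37.0, 26.0 and 25.3 FPKM in Vehicle, CLA, GW6471 and CLA+GW6471 was almost all Cd68. The fibroblast list summed to between 1149 and 1507 FPKM, nearly all Dcn, and the endothelial list to less than 1 FPKM. Apart from Cd68 and Dcn, every analysed macrophage, fibroblast and endothelial marker had a mean below 1 FPKM. Ptprc, Col3a1 and Cdh5 had means of 0.0075, 0.005 and 0.0025 FPKM. The adipocyte list, almost all of it the lipid droplet gene Cidec, summed to 5.23 (Vehicle), 1.77 (CLA), 2.41 (GW6471) and 5.03 FPKM (CLA+GW6471), and so was lowest in CLA like most of the coactivators. The part of these markers in the results below was not tested.

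Promoter sequence from RefSeq (GRCm38.p6, 250 bases before to 50 after the annotated start) was held for 6 of the 10 members: Crebbp, Ep300, Ncoa1, Ncoa6, Ppargc1a and Sirt1. Both strands were searched for the E-box CACGTG, the motif bound by CLOCK and BMAL1, for the cyclic AMP response element TGACGTCA and the TGACG it begins with, both bound by CREB, and for AGGTCA, the core bound by nuclear receptors. The 3 promoters with a match are shown because they are those in which a clock, CREB or receptor motif stands near the start of a coactivator gene. Capitals mark the matches, and in Sirt1 the second E-box overlaps a TGACG. A motif on the other strand reads as its complement, so that TGACG appears as CGTCA in Ppargc1a and AGGTCA as TGACCT in Ncoa6.
Sirt1: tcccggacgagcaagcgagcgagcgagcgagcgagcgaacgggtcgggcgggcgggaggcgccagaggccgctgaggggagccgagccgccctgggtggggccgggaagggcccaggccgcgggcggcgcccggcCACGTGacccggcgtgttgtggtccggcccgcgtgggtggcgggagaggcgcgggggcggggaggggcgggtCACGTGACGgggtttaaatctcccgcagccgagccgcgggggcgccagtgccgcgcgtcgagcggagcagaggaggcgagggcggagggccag
Ppargc1a: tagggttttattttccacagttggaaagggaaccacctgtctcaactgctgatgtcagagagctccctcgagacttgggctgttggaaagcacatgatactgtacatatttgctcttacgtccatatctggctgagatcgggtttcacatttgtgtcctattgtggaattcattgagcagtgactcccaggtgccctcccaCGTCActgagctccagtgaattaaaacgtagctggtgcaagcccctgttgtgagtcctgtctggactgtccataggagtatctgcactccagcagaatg
Ncoa6: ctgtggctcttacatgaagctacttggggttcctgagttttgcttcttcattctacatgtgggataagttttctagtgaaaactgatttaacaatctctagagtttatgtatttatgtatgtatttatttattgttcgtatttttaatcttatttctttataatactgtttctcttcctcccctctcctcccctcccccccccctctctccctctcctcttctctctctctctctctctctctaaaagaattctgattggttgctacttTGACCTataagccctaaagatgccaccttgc

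The Sirt1 promoter (chr10:63338986-63339285, minus strand) held 2 E-boxes, which began 115 and 43 bases before the start. The E-box was present in 7.15% of 32851 mouse promoters of the same length, the full response element in 1.79%, its short form in 20.8% and the receptor core in 16.3%. The Ppargc1a promoter (chr5:51567676-51567975, minus strand) held 1 short response element and the Ncoa6 promoter (chr2:155440734-155441033, minus strand) held 1 receptor core. No match of these letters was found in the promoters of Crebbp, Ep300 and Ncoa1, which are rich in G and C at 82%, 72.3% and 84.7%, against a median of 52.7% over all promoters. The G and C content was 79% for Sirt1, 48.7% for Ppargc1a and 39.3% for Ncoa6. These matches describe letters in a window, and binding was not measured in these libraries.

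The coactivators spanned a wide range of levels, and their order was almost the same in every library. By mean FPKM over the libraries, Carm1 was the most abundant at 34.9, followed by Ncoa6 at 27.0, Ep300 at 22.9, Ncoa3 at 19.9, Ncoa2 at 12.1, Tgs1 at 9.41, Sirt1 at 6.24, Crebbp at 5.95, Ncoa1 at 2.22 and Ppargc1a at 1.49. The only change of order was between Ep300 and Ncoa3, of which Ncoa3 was higher in Vehicle and Ep300 in the other libraries. Over the 4 libraries, which are 4 conditions and not replicates, the ranges of Ncoa6 and Ep300, of Ep300 and Ncoa3, and of Sirt1 and Crebbp overlapped, and those of the other neighbours did not. The median over all listed genes was 5.97 FPKM, so that Crebbp lay at the middle of the table and Ppargc1a and Ncoa1 well below it. Summed over the members, the level was 145.65 (Vehicle), 121.64 (CLA), 148.0 (GW6471) and 153.2 FPKM (CLA+GW6471).

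**Figure D1:**
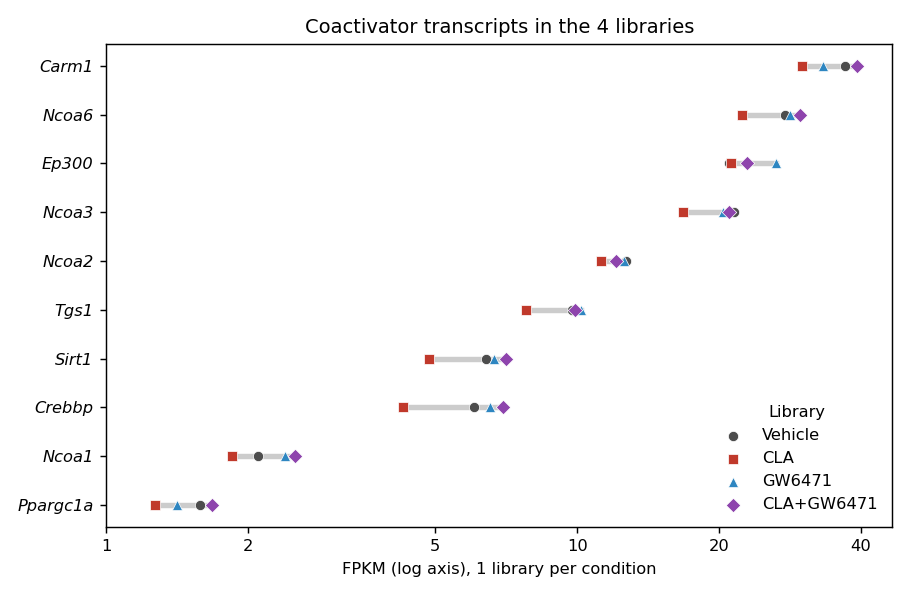
FPKM (log axis) of each coactivator in the Vehicle, CLA, GW6471 and CLA+GW6471 libraries, 1 point per library, ordered by mean level. The grey bar joins the lowest and the highest library. The CLA point is the lowest for 9 of the 10 genes, all but Ep300.

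The paralogous acetyltransferases CBP and p300 differed from each other across the libraries. Crebbp (mm9 chr16:4084048-4213404, minus strand), which encodes CBP, the partner of phosphorylated CREB and of many receptors, was at 6.05 (Vehicle), 4.26 (CLA), 6.52 (GW6471) and 6.97 FPKM (CLA+GW6471). The CLA library stood apart below the other three. Its log2 ratio of CLA to Vehicle was -0.50 (counting interval -0.66 to -0.35), the largest of the members in size, and that of CLA+GW6471 to CLA was 0.70 (0.56 to 0.86). GW6471 against Vehicle gave 0.11 (-0.027 to 0.24) and CLA+GW6471 against GW6471 gave 0.095 (-0.034 to 0.23), both within counting error.

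Ep300 (chr15:81415781-81482507, plus strand), which encodes p300, the closely related acetyltransferase that also acetylates clock proteins, was at 20.98 (Vehicle), 21.21 (CLA), 26.44 (GW6471) and 22.95 FPKM (CLA+GW6471). Here GW6471 was the highest library and CLA was not lower than Vehicle. The log2 ratio of CLA to Vehicle was 0.016 (-0.053 to 0.084), and that of GW6471 to Vehicle was 0.33 (0.27 to 0.40), the only member to exceed 1.2-fold in that comparison. With CLA added to GW6471, Ep300 was lower by -0.20 on the log2 scale (-0.27 to -0.14). The level of Ep300 was 3.47 times that of Crebbp in Vehicle, 4.98 times in CLA, 4.06 times in GW6471 and 3.29 times in CLA+GW6471. Crebbp thus made up 22.4%, 16.7%, 19.8% and 23.3% of the summed FPKM of the pair in these libraries. A 54-base miRNA exon lies on the same strand within the 11234 exon bases of Ep300.

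The p160 family, the receptor-binding coactivators SRC-1, SRC-2 and SRC-3, was led by Ncoa3 in every library. Ncoa3 (chr2:165818136-165898742, plus strand), which encodes SRC-3, was at 21.58 (Vehicle), 16.78 (CLA), 20.36 (GW6471) and 21.01 FPKM (CLA+GW6471). Again CLA was the lowest library, with a log2 ratio to Vehicle of -0.36 (-0.44 to -0.29), and CLA+GW6471 stood above CLA by 0.32 (0.25 to 0.40). Ncoa3 was the only relative below Vehicle by 1.2-fold in CLA. GW6471 against Vehicle gave -0.084 (-0.16 to -0.010) for Ncoa3. Of its 7895 exon bases, 154 are shared with Sulf2 on the opposite strand, which was at 23.44, 26.43, 29.30 and 31.55 FPKM in the same libraries.

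Ncoa2 (chr1:13129186-13364164, minus strand), which encodes SRC-2, a coactivator with a known part in hepatic glucose output, was the steadiest member. It was at 12.68 (Vehicle), 11.24 (CLA), 12.55 (GW6471) and 12.09 FPKM (CLA+GW6471), so that its highest library exceeded its lowest 1.13-fold. Ncoa1 (chr12:4247363-4484060, minus strand), which encodes SRC-1, was the lowest of the family at 2.10, 1.85, 2.40 and 2.52 FPKM in the same order. For Ncoa1, CLA was the lowest library, but its log2 ratio to Vehicle of -0.17 lay within counting error (-0.43 to 0.065). The ratio of CLA+GW6471 to CLA was 0.43 (0.21 to 0.68) for Ncoa1 and 0.10 (0.010 to 0.20) for Ncoa2. The family summed to 36.36 (Vehicle), 29.87 (CLA), 35.31 (GW6471) and 35.62 FPKM (CLA+GW6471). Ncoa3 made up 59.4%, 56.2%, 57.7% and 59.0% of that sum, Ncoa2 34.9%, 37.6%, 35.5% and 33.9%, and Ncoa1 5.78%, 6.19%, 6.80% and 7.07%. The makeup of the family therefore moved by a few percentage points while its sum was lowest in CLA.

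**Figure D2:**
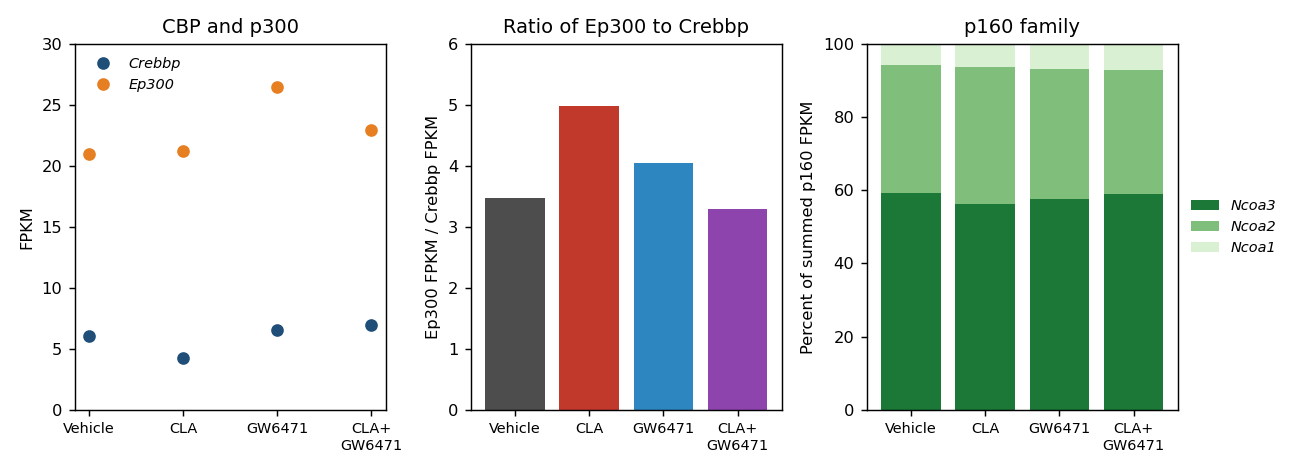
Levels of the paired acetyltransferases and of the p160 family in the 4 libraries: FPKM of Crebbp and Ep300 (left), the ratio of Ep300 to Crebbp (middle, bars from 0), and the percent of the summed p160 FPKM held by each member (right). The ratio of Ep300 to Crebbp was highest in CLA, at 4.98, and Ncoa3 held over 56% of the p160 sum in every library.

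Carm1, Ncoa6 and Tgs1 encode further partners of the coactivator machinery. Carm1 (chr9:21351338-21393931, plus strand), an arginine methyltransferase of histone H3 and of p160 and CBP proteins, was at 36.96 (Vehicle), 30.01 (CLA), 33.19 (GW6471) and 39.35 FPKM (CLA+GW6471). Both single treatments were below Vehicle and the combination was above it. The log2 ratio was -0.30 (-0.39 to -0.21) for CLA and -0.15 (-0.24 to -0.069) for GW6471, each against Vehicle. It was 0.39 (0.30 to 0.48) for CLA+GW6471 against CLA and 0.24 (0.16 to 0.33) for CLA+GW6471 against GW6471. Of the 4324 exon bases of Carm1, 779 are shared with Yipf2 on the opposite strand, and since no source used here says whether counting used strand, reads there cannot be assigned to either gene. Yipf2 itself was at 9.23, 16.17, 13.31 and 9.27 FPKM in Vehicle, CLA, GW6471 and CLA+GW6471, that is, higher in the libraries in which Carm1 was lower. Its part in the Carm1 values was not tested.

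Ncoa6 (chr2:155216401-155299630, minus strand), the scaffold of a histone H3 lysine 4 methyltransferase complex that serves nuclear receptors, was at 27.56 (Vehicle), 22.37 (CLA), 28.29 (GW6471) and 29.67 FPKM (CLA+GW6471). Only the CLA library was below Vehicle, by a log2 ratio of -0.30 (-0.37 to -0.23), and CLA+GW6471 was above CLA by 0.41 (0.34 to 0.48). Ncoa6 was the member nearest to the median profile of the 10 genes, at a root mean square distance of 0.017 on the log2 scale over the 4 libraries. Tgs1 (chr4:3502022-3543766, plus strand), the cap hypermethylase that binds NCOA6, followed a like course at 9.76, 7.80, 10.17 and 9.89 FPKM. Its log2 ratio of CLA to Vehicle was -0.32 (-0.48 to -0.17), and that of CLA+GW6471 to CLA was 0.34 (0.19 to 0.49).

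Sirt1 and Ppargc1a, the deacetylase and its substrate PGC-1α, were also lowest in CLA. Sirt1 (chr10:62781753-62844452, minus strand), whose promoter carries the E-boxes printed above, was at 6.40 (Vehicle), 4.85 (CLA), 6.67 (GW6471) and 7.05 FPKM (CLA+GW6471). Its log2 ratio of CLA to Vehicle was -0.39 (-0.59 to -0.21), and that of CLA+GW6471 to CLA was 0.53 (0.36 to 0.73), in both cases second in size to Crebbp. A lincRNA on the opposite strand shares 65 of its 5331 exon bases.

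Ppargc1a (chr5:51845488-51958964, minus strand), the inducible coactivator of mitochondrial and gluconeogenic genes, was the least abundant member at 1.58 (Vehicle), 1.27 (CLA), 1.41 (GW6471) and 1.68 FPKM (CLA+GW6471). With 154 to 209 estimated reads per library its precision was the poorest of the members. The log2 ratio of CLA to Vehicle was -0.29 with an interval that nearly reached 0 (-0.63 to -0.0015), and that of CLA+GW6471 to CLA was 0.38 (0.096 to 0.71). The profile of Ppargc1a ran beside that of Carm1, and the level of Carm1 was 23.4, 23.6, 23.5 and 23.4 times that of Ppargc1a in Vehicle, CLA, GW6471 and CLA+GW6471.

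In CLA against Vehicle, 7 of the 10 members were lower by at least 1.2-fold, Crebbp, Ncoa3, Ncoa6, Carm1, Ppargc1a, Sirt1 and Tgs1, and none was higher. Of all genes tested, 21.7% were lower and 22.3% were higher by that ratio. The 7 comprised all 6 displayed genes and 1 of the 4 relatives, and the displayed genes are the ones treated as chosen on this difference. Lower by any amount were 9 of the 10 members and 50.9% of all genes, and none of the members was lower by 1.5-fold, against 4.95% of all genes. The differences were thus small in size. The median log2 ratio was -0.30 over the members, -0.31 over the displayed genes, -0.17 over the relatives and -0.0071 over all genes. Closest to the 1.2-fold limit were Ppargc1a, inside it at 1.23-fold, and Ncoa1, outside it at 1.13-fold. With a pseudocount of 1 Ppargc1a did not reach the limit, at a log2 ratio of -0.18.

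In CLA+GW6471 against CLA, all 10 members were higher, against 50.9% of all genes that were higher by any amount. Each of the 10 ratios lay beyond counting error, which was not calculated for all genes. The CLA library is part of this comparison and also of the one behind the displayed genes, and the same low readings count in each. At least 1.2-fold higher were 8 of the 10, all but Ep300 and Ncoa2, against 24.5% of all genes, and none was lower, against 24.3%. With a pseudocount of 1 Ppargc1a, at 0.24, did not reach 1.2-fold and 7 remained, against 22.2% of all genes. Crebbp alone passed 1.5-fold, at 1.62-fold, against 6.84% of all genes. The median log2 ratio was 0.38 over the members, 0.40 over the displayed genes, 0.22 over the relatives and 0.0090 over all genes. The CLA library was the lowest of the 4 for 9 of the 10 members and for 34.6% of all genes.

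Among the libraries labelled with GW6471, the coactivators stood at close levels with and without CLA. In CLA+GW6471 against GW6471, which uses neither library of that display, none of the 10 members differed by 1.2-fold in either direction, whereas 17.7% of all genes were lower and 17.7% were higher by that ratio. With the libraries scaled to a common sum, these shares became 23.7% and 12.5%, and Ep300 was then lower by 1.2-fold at a log2 ratio of -0.27. Higher by any amount were 7 of the 10 members and 50.4% of all genes. Beyond counting error were Carm1 at 0.24 and Ncoa6 at 0.068 (0.0047 to 0.13), which were higher, and Ep300 at -0.20, which was lower. Under the common sum Ncoa6, at 0.0029, fell within counting error, and Ncoa2, at -0.12, was lower beyond it. As deposited, the other ratios ran from -0.053 for Ncoa2 to 0.24 for Ppargc1a, whose interval of -0.044 to 0.55 was the widest. The median was 0.068 over the members and 0.0041 over all genes, and 0.0036 and -0.061 under the common sum.

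In GW6471 against Vehicle, 7 of the 10 members lay within counting error, a share not calculated for all genes. At least 1.2-fold higher was 1 of the 10, Ep300, against 14.7% of all genes, and none was lower, against 14.8%. Scaled to a common sum, the shares of all genes became 18.1% and 11.7%, and Ep300 remained the only member called. Higher by any amount were 6 of the 10 members and 49.2% of all genes. Beyond counting error were Ep300, Carm1 and Ncoa3, of which the latter pair were lower. Under the common sum Ncoa3, at -0.041, fell within counting error, while Crebbp at 0.15, Ncoa1 at 0.23 and Ncoa6 at 0.080 were higher beyond it. The median was 0.048 over the members and -0.0041 over all genes, and 0.091 and 0.039 under the common sum.

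**Figure D3:**
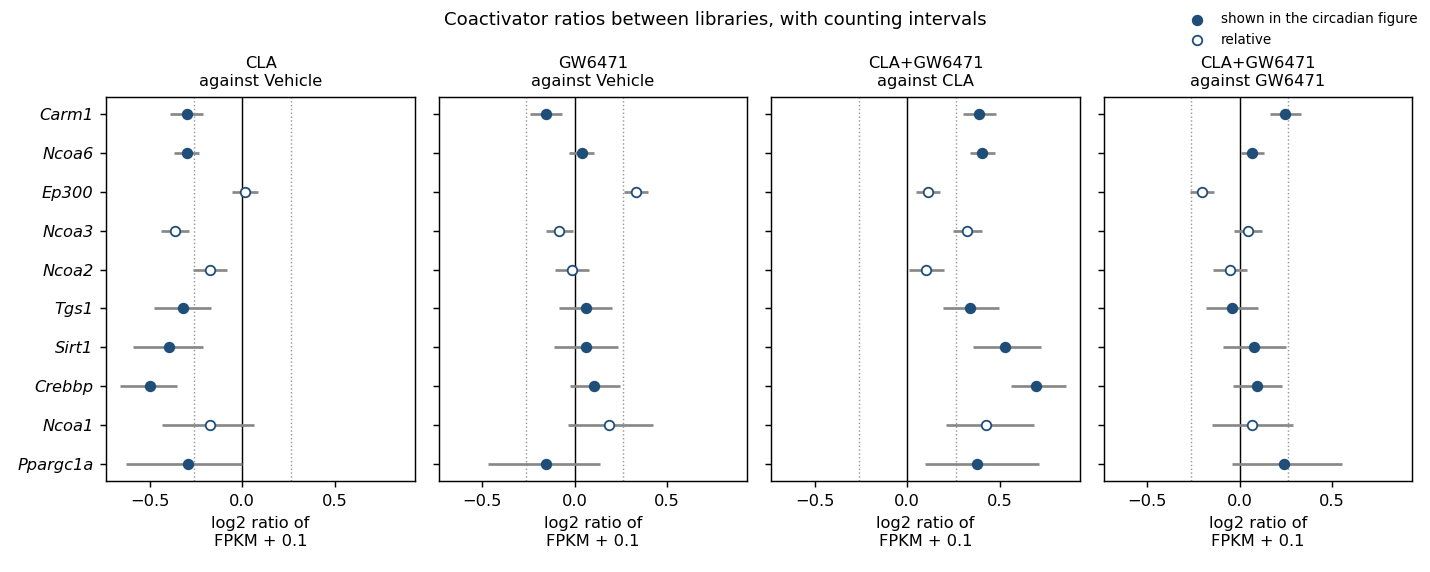
Log2 ratios (FPKM + 0.1) of each coactivator in the 4 comparisons. Filled points are the genes of the study's circadian display, open points the relatives, grey bars 95% counting intervals, and dotted lines a 1.2-fold ratio. The CLA to Vehicle ratios ran from -0.50 (Crebbp) to 0.016 (Ep300), and all 10 ratios of CLA+GW6471 to CLA lay above 0.

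Set side by side, the ratio for CLA without GW6471 was lower than that with GW6471 for 9 of the 10 members and for 51.2% of all genes. The second minus the first was 0.59 for Crebbp, 0.54 for Carm1, 0.53 for Ppargc1a, 0.47 for Sirt1, 0.41 for Ncoa3, 0.37 for Ncoa6, 0.28 for Tgs1, 0.24 for Ncoa1 and 0.12 for Ncoa2 on the log2 scale, and -0.22 for Ep300. The median was 0.39 over the members, 0.50 over the displayed genes, 0.18 over the relatives and 0.016 over all genes. Since the displayed genes are treated as chosen on the first ratio, nothing is read from their larger values.

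Of the genes outside the members with a mean of at least 5 FPKM, 8174 were compared with the members' median profile over the 4 libraries. The nearest were Zfp609, Ptprk, Stag1, Gabpb1 and Tmem127, with root mean square distances of 0.019 to 0.022 on the log2 scale. As many as 475 of the 8174 lay nearer to that profile than the median member did, and 2727 lay nearer than Ep300, the farthest member at 0.147.

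The other genes of the pathway were read from lists chosen by function, against the 21.7% of all genes lower and 22.3% higher by 1.2-fold in CLA than in Vehicle and the 24.3% lower and 24.5% higher in CLA+GW6471 than in CLA. The remaining circadian genes of the study's display, 11 of 14 above the level filter, were shown there with values of the same libraries as the members, so their direction is no independent evidence. Of these, 9 were lower by 1.2-fold in CLA than in Vehicle and 1 was higher, with a median of -0.39, and 10 were higher in CLA+GW6471 than in CLA, with a median of 0.52. The most abundant were Csnk1e, a kinase of the PER proteins, at 99.57 (Vehicle), 83.15 (CLA), 89.46 (GW6471) and 106.58 FPKM (CLA+GW6471), and the transcription factor gene Mef2d, at 36.02, 29.13, 35.02 and 41.93 FPKM in the same order. Arntl, the gene of BMAL1, was at 19.83, 11.59, 17.12 and 21.01 FPKM. The gene of the repressor REV-ERBα, Nr1d1, was the 1 that was higher in CLA, at 22.83 FPKM against 17.97 in Vehicle.

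Of 6 genes of the CREB family and CREB coactivators, 2, Creb1 and Crem, were lower by 1.2-fold in CLA than in Vehicle, none was higher, and 4 were higher in CLA+GW6471 than in CLA, against 24.5% of all genes. Creb1, whose product recruits CBP, was at 13.31, 10.14, 14.13 and 13.52 FPKM in the order of libraries used above, and Creb1 and Crem both belong to the display as well, so neither is a separate count. The most abundant of this list were Atf1 and Crtc2, at 41.43 and 34.35 FPKM in Vehicle and 34.53 and 29.40 in CLA.

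Of 19 further nuclear receptor coactivators above the filter, 6 were lower by 1.2-fold in CLA than in Vehicle and none was higher, with a median of -0.15. In CLA+GW6471 against CLA, 8 of these 19 were higher and none was lower, against 24.5% and 24.3% of all genes, with a median of 0.18. The most abundant were Phb2, at 330.23 and 298.0 FPKM in Vehicle and CLA, and Cited2, which binds CBP and p300, at 312.15 and 235.67 FPKM. The receptor-binding Mediator subunit Med1 was at 19.12, 16.46, 21.56 and 21.06 FPKM in the 4 libraries, and its log2 ratio of CLA to Vehicle of -0.21 did not reach 1.2-fold.

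The relatives of the single enzymes differed from list to list. Of 7 other protein arginine methyltransferases, Prmt2, Prmt3 and Prmt6 were lower by 1.2-fold in CLA than in Vehicle and none was higher, with a median of -0.16, while 2 were higher in CLA+GW6471 than in CLA and none was lower, with a median of 0.21. Prmt1 was the most abundant at 103.86 and 95.37 FPKM in Vehicle and CLA, followed by Prmt2 at 58.20 and 41.82 FPKM. Of 9 other lysine acetyltransferases, none passed the ratio in either direction, though Naa60 was lower by it under the common sum, and Kat2a and Kat7, the most abundant, were at 43.02 and 30.86 FPKM in Vehicle and 40.57 and 31.74 in CLA. Their median log2 ratio was -0.0071, beside -0.50 for Crebbp and 0.016 for Ep300. Set against CLA, CLA+GW6471 had 2 of them higher and none lower, with a median of -0.079.

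Of 6 other sirtuins, Sirt5 and Sirt6 were higher by 1.2-fold in CLA than in Vehicle and none was lower, with a median of 0.14, the opposite direction to Sirt1. In CLA+GW6471 against CLA, 1 was higher and 1 was lower, with a median of -0.083. Sirt2 and Sirt7 were the most abundant, at 37.26 and 16.51 FPKM in Vehicle and 38.09 and 18.71 in CLA. Of 9 further subunits of the methyltransferase complexes that hold NCOA6, 1 was lower, the histone methyltransferase Mll3, which did not reach 1.2-fold with a pseudocount of 1, and none was higher, with a median of -0.097. For CLA+GW6471 against CLA the counts were 1 higher and 1 lower, with a median of 0.077. The most abundant subunits, Dpy30 and Ash2l, were at 53.31 and 33.68 FPKM in Vehicle and 57.34 and 40.19 in CLA, and neither reached 1.2-fold.

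Of 14 subunits of the SWI/SNF chromatin remodelling complex, 3 were higher by 1.2-fold in CLA than in Vehicle, Smarca2, Smarcb1 and Smarcd2, and none was lower, though Arid2 was lower by it under the common sum. Smarce1, the most abundant, was at 52.46 and 52.43 FPKM in these libraries, and Smarcd2 at 40.50 and 51.55. Of 10 corepressor genes, Hdac1 and Sin3a were higher and Gps2 was lower, while Hdac2 and Hdac3, the most abundant, were at 55.12 and 50.66 FPKM in Vehicle and 56.92 and 57.76 in CLA. Set against CLA, CLA+GW6471 had 1 SWI/SNF subunit higher and 3 lower, with a median of -0.0013, and 1 corepressor gene higher and 2 lower, with a median of -0.092.

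The receptors that the members serve showed no common direction. Of 14 such genes above the filter, 3 were lower by 1.2-fold in CLA than in Vehicle and 4 were higher, with a median of -0.075. The lower ones include Rora, which is also a gene of the display and did not reach 1.2-fold with a pseudocount of 1. With that pseudocount, 2 receptors and 8 displayed circadian genes remained lower, against 19.2% of all genes. Set against CLA, CLA+GW6471 had 3 receptors lower and 4 higher, with a median of 0.024. The most abundant were Nr1h2, the oxysterol receptor LXRβ, at 57.07 and 60.37 FPKM in Vehicle and CLA, and Hnf4a, a hepatocyte master regulator, at 54.53 and 47.31. Of 13 genes known to be raised by PGC-1α, 2 were lower in CLA than in Vehicle, Cycs and Nrf1, and 4 were higher, Cpt1a, Idh3a, Acadm and Pdk4. Their median was -0.0075, beside a Ppargc1a ratio of -0.29. In CLA+GW6471 against CLA, 2 of the 13 were lower and 5 were higher, against 24.3% and 24.5% of all genes, with a median of 0.089. The respiratory chain genes Cox5b and Atp5o, the most abundant, were at 254.71 and 123.65 FPKM in Vehicle and 241.07 and 131.0 in CLA.

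**Figure D4:**
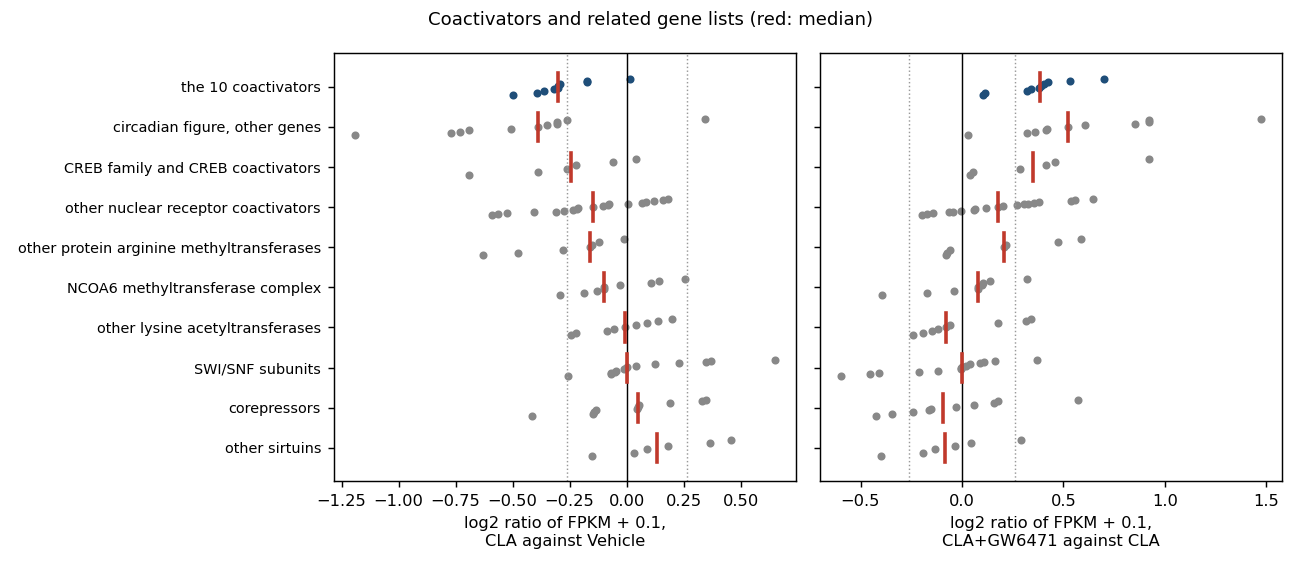
Log2 ratios (FPKM + 0.1) of the 10 coactivators (blue) and of related gene lists (grey), 1 point per gene above the level filter, for CLA against Vehicle (left) and CLA+GW6471 against CLA (right). Red bars are medians and dotted lines a 1.2-fold ratio. The median for CLA against Vehicle was -0.30 over the coactivators, -0.39 over the other displayed circadian genes, -0.15 over further coactivators and 0.14 over the other sirtuins.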

How the data were processed

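RNA sequencing libraries labelled as liver, 1 for each of Vehicle, CLA, GW6471 and CLA+GW6471, were assigned to conditions from their labels. The authors deposited values per gene with 2 decimals, which were taken as FPKM. The submitters' processing notes name mm9, BWA, Bowtie and Cufflinks without versions, and no source used here gives the filter behind the 15500 listed genes. The table names no unit in its header. The study's methods name Cufflinks but not FPKM, and the unit was taken from the supplement.

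Before log2, 0.1 was added to each FPKM, and genes with a mean of at least 1 FPKM (10355) formed the background. No count model was fitted, since the table holds no counts. Depth was estimated from the spacing of low values in 464 short genes with 1 annotated transcript, and reads per gene from the longest coding transcript of GENCODE vM1. The depth and ratio steps were tested on simulated data. Calculations used scipy 1.17.1, pandas 2.3.3 and numpy 2.4.6 in Python 3.11.15, and plots matplotlib 3.10.9.

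The members and lists were chosen with earlier results of these data known. The genes named outside the members were the 5 nearest to the median profile, the 2 most abundant of each functional list, the cell type markers, and Nr1d1, Arntl and Cry1. Further genes of the lists were named after their values were seen. Older symbols of the table (Mll2 for Kmt2d, Mll3 for Kmt2c, Prmt10 for Prmt9, Emr1 for Adgre1) were matched by Entrez number. Promoters came from RefSeq (GRCm38.p6) and gene positions from GENCODE vM1 (mm9), and these builds were not mixed. Protein sequences were not analysed here. Alternatives were pseudocounts of 0.01 and 1, scaling by median of ratios or to a common sum, a filter at 5 FPKM or none, a 1.5-fold call, and the displayed genes or the relatives alone.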

Additional observations from a re-analysis of the deposited data

Results flagged for a closer look

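For 3 members, a ratio lay beyond its counting interval in opposite directions without and with the other treatment. The log2 ratio for CLA was -0.30 without GW6471 and 0.24 with it for Carm1, a difference of 0.54, and -0.30 and 0.068 for Ncoa6, a difference of 0.37. The log2 ratio for GW6471 was -0.15 without CLA and 0.39 with it for Carm1, which is by arithmetic the same difference of 0.54, and -0.084 and 0.32 for Ncoa3, a difference of 0.41. Scaled to a common sum, the ratio of Ncoa6 with GW6471 (0.0029) and that of Ncoa3 without CLA (-0.041) fell within counting error, and Carm1 alone kept opposite directions beyond it. With 1 library per condition these differences were not tested.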

How the results depend on the processing

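Of 86 recalculations of the medians and counts of the coactivators, 82 stayed within the counting spread or, for counts, within 1.5 times the value given, as did 243 of 248 for single members and related lists. No ratio of at least 1.2-fold changed its sign, while 3 smaller ones did under the common sum: Ep300 in CLA against Vehicle (-0.015), Ncoa2 in GW6471 against Vehicle (0.028) and Ncoa3 in CLA+GW6471 against GW6471 (-0.020). Counting from 1.5-fold, 0 members were lower in CLA than in Vehicle, against 4.95% of all genes. Higher in CLA+GW6471 than in CLA was 1 member, against 6.84%, and higher in GW6471 than in Vehicle were 0, against 3.28%. Scaling to a common sum made 1 member, Ep300, lower by 1.2-fold in CLA+GW6471 than in GW6471, against 23.7% of all genes. With only the displayed genes the median difference of the CLA ratios was 0.50, and with only the relatives 0.18. With a pseudocount of 1, only 6 members were lower in CLA than in Vehicle, against 19.2% of all genes. Only 7 were then higher in CLA+GW6471 than in CLA, against 22.2%. Neither count held Ppargc1a. Under the common sum 3 ratios moved beyond counting error and 1 within it in GW6471 against Vehicle, and 1 each way in CLA+GW6471 against GW6471, while scaling by median of ratios moved none. No paired analysis was possible because each condition had 1 library, and for the same reason no library could be left out. Depth limits Ppargc1a and Ncoa1 most, since they had the fewest estimated reads, and the spread between mice was not measured for any gene.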

Other observations

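Among the genes known to be raised by PGC-1α, Pdk4 and Cpt1a, which are also classical targets of PPARα in fatty acid oxidation, had larger ratios than any coactivator when either GW6471 library was set against its counterpart without GW6471. Pdk4 was at 1.17 (Vehicle), 1.87 (CLA), 17.99 (GW6471) and 15.56 FPKM (CLA+GW6471), and Cpt1a at 11.34, 15.98, 46.04 and 43.13 FPKM. Both libraries labelled with the PPARα antagonist were the high ones. The gene of PPARα itself, Ppara, was near the floor in every library, at 0.15 (Vehicle), 0.11 (CLA), 0.06 (GW6471) and 0.07 FPKM (CLA+GW6471). Its part in these values was not tested. Ppargc1a itself was at 1.41 and 1.68 FPKM in those libraries and at 1.58 in Vehicle. Cry1, a clock repressor of the study's circadian display, had a larger ratio of its highest to its lowest library than any member, at 10.71, 4.63, 6.71 and 13.05 FPKM in Vehicle, CLA, GW6471 and CLA+GW6471.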
